A study of Saccharomyces cerevisiae with 12 samples.

Results

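The 10 genes described here encode the cytosolic thioredoxin and glutaredoxin systems of budding yeast, the peroxidases that use them, and a transcription factor of the oxidative stress response. They were chosen by their systematic names, with earlier results of these data known, and are 10 of the 6685 genes listed, all of them among the 6546 genes tested. The thioredoxin system is represented by TRX1 (YLR043C), TRX2 (YGR209C) and the reductase gene TRR1 (YDR353W), the dithiol glutaredoxins by GRX1 (YCL035C) and GRX2 (YDR513W), and the peroxiredoxins by TSA1 (YML028W), TSA2 (YDR453C) and AHP1 (YLR109W). GPX2 (YBR244W) belongs to the glutathione peroxidase family, and YAP1 (YML007W) encodes the transcription factor.

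Thioredoxins are small proteins that reduce disulfides in other proteins and are reduced in turn by thioredoxin reductase, with NADPH as the source of electrons. Peroxiredoxins reduce hydrogen peroxide and organic peroxides through a reactive cysteine and pass the oxidation on to thioredoxin, while glutaredoxins draw their electrons from glutathione. Yap1 moves to the nucleus when its own cysteines are oxidised and there activates many thiol redox genes, among them TRX2, TRR1, AHP1 and GPX2. Thioredoxin also feeds the sulfate assimilation pathway, which cells need to make methionine and cysteine when the medium holds none.

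The study compared a wild-type strain (WT) with a strain in which the KanMX cassette replaced CHO2 (cho2), the gene of the phosphatidylethanolamine methyltransferase. Both strains had the CEN.PK background and mating type MAT a. Cultures were sampled in YPL, a rich medium of yeast extract (1%), peptone (2%) and lactate (2%), and then at 1 h and at 3 h after washing and a change to SL, made from nitrogen base (0.17%) with ammonium sulfate (0.5%) and the same lactate but without amino acids. That makes 6 groups of 2 libraries of poly-A RNA, which the series calls biological replicates. Whether each pair was grown as separate cultures is not stated, and p-values here measure a spread between libraries that may be technical. Lactate was present in all 6 groups, and none of the 12 libraries came from cells washed and kept in YPL, so loss of amino acids cannot be told apart from washing, time or the other changes of medium.

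Values are normalised read counts, which are gene counts divided by 1 factor for each library. They are shares of the RNA in a library, and neither RNA per cell nor the share of cells that expressed a gene was measured. Genes were not compared by level with each other, since the values are not per length. Differences are given on the log2(value + 1) scale with their standard error (SE), and a gene passed where its limma p, adjusted by Benjamini and Hochberg over the 6546 tested genes, was under 0.05.

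Recovered depth ran from 9.17 M to 12.5 M (mega) reads per library, apart from the second WT library at 3 h with 3.17 M. Across genes, which are no independent replicates, the 2 libraries of a group had r from 0.976 to 0.996. By the chi-square of their recovered reads per degree of freedom, the pair of cho2 at 3 h differed most (71.3, others 6.09 to 29.6). All groups share 1 estimate of the spread in the fit, so this pair also bears on comparisons it is not part of. CHO2 read 1570 to 4065 in the WT libraries and 3.77 to 9.19 in the cho2 libraries, as the labels say. Of the MAT a genes STE2 was listed at 692 to 1549, BAR1 at 156 to 572 and MFA1 at 237 to 916. The MAT alpha genes MF(ALPHA)1 and STE3 stood at 3.03 to 34.9 and at 93.0 to 339, highest in cho2 at 3 h, and their part in the results was not tested. The typical gene was low in 1 library, the second of cho2 at 3 h, where the median deviation from the all-library mean was -0.34 log2 (others -0.07 to 0.17). Values relative to each library's own median gene are therefore given beside 3 h comparisons of the strains. They cover TRX2, AHP1, TRR1, GRX1, GRX8 and OYE2. With 2 libraries a group, groups that do not overlap are common. Between samplings of 1 strain this held in WT for 80.8% of all tested genes at 1 h against YPL, 76.5% at 3 h against YPL and 70.9% at 3 h against 1 h. In cho2 it held for 85.4%, 74.3% and 59.5%.

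**Figure D1:**
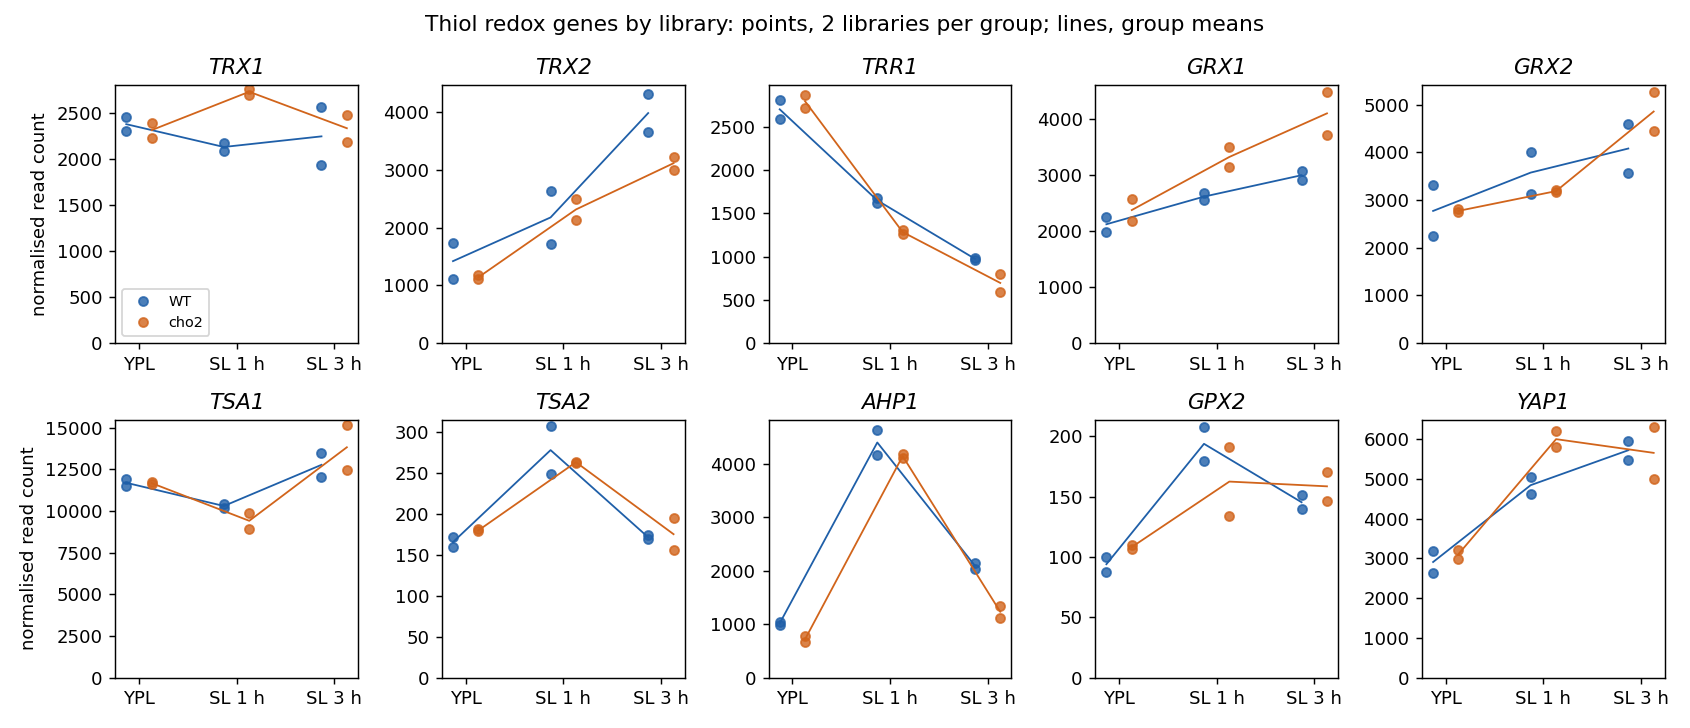
Normalised read counts (vertical axes, each from 0) of the 10 genes in YPL and at 1 h and 3 h in SL (horizontal axes). Points are single libraries, 2 per group, lines join group means, and WT is blue and cho2 orange. TRR1 runs downward and TRX2 upward in both strains, while AHP1 and TSA2 peak at 1 h.

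TRX2 and the reductase gene TRR1 moved in opposite directions after the change to SL. TRX2 rose, TRR1 fell, and TRX1 passed in none of the comparisons within a strain (unadjusted p from 0.16 to 0.95). TRX1 stood in WT at 2456 and 2304 in YPL, 2170.0 and 2093 at 1 h and 1933 and 2561 at 3 h. In cho2 TRX1 held 2235 and 2396 in YPL, 2700.2 and 2765 at 1 h and 2484 and 2188 at 3 h. Its highest library in all 12 was 1.43 times its lowest. At 1 h both cho2 libraries of TRX1 lay above every other library. Quantile normalization called its difference from YPL in cho2, at 0.49 (adjusted p = 0.0071) at 1 h and 0.36 (0.033) at 3 h.

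TRX2, the thioredoxin gene known as a Yap1 target, stood in WT at 1732 and 1107 in YPL, 2641 and 1715 at 1 h and 4317 and 3661 at 3 h. Its cho2 libraries held 1101 and 1176 in YPL, 2131 and 2502 at 1 h and 3231 and 3007 at 3 h. In both strains the 3 h libraries were the highest and lay above all YPL and 1 h libraries. At 3 h TRX2 was up on YPL by 1.52 ± 0.21 (adjusted p = 1.1e-06) in WT and by 1.45 ± 0.21 (adjusted p = 2.1e-06) in cho2. At 1 h the rise was 0.62 ± 0.21 (adjusted p = 0.014) in WT, where the groups overlapped, and 1.02 ± 0.21 (adjusted p = 0.00023) in cho2, where they did not. The call of the WT rise at 1 h was lost without single libraries. The difference was 0.30 without the second WT YPL library and 0.31 without the first WT library at 1 h. Same-numbered WT libraries both rose, from 1732 to 2641 and from 1107 to 1715, and a pairing within WT was not tested. With TMM scaling the adjusted p of the rise was 0.11 and with DESeq2 0.068, and the cause was not tested. Between 1 h and 3 h TRX2 rose in WT (0.90 ± 0.21, adjusted p = 0.0015), a call lost without the second WT library at 1 h (difference 0.59). In cho2 its rise did not pass (0.43 ± 0.21, adjusted p = 0.12), but DESeq2 called it (0.64, adjusted p = 0.017). The difference between the strains in this change did not pass by limma (-0.47 ± 0.29, adjusted p = 0.54).

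TRR1, the cytosolic thioredoxin reductase gene and likewise a known Yap1 target, fell at each step in each strain. Its libraries stood in WT at 2595 and 2815 in YPL, 1623 and 1678 at 1 h and 988 and 960.2 at 3 h. In cho2 they stood at 2723 and 2873 in YPL, 1259 and 1308 at 1 h and 798 and 591 at 3 h. No group overlapped another of the same strain. Against YPL the difference was -0.71 ± 0.17 (adjusted p = 0.00089) at 1 h and -1.47 ± 0.17 (adjusted p = 7e-08) at 3 h in WT, and -1.12 ± 0.17 (adjusted p = 4.5e-06) and -2.02 ± 0.17 (adjusted p = 3.3e-10) in cho2. Between 1 h and 3 h TRR1 fell by 0.76 ± 0.17 (adjusted p = 0.001) in WT and fell by 0.90 ± 0.17 (adjusted p = 0.0002) in cho2. These 6 falls passed under all 23 alternative settings tried.

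The glutaredoxin genes GRX1 and GRX2, whose products use glutathione to reduce disulfides and also have glutathione peroxidase activity, were highest at 3 h in both strains. GRX1 held 2251 and 1985 in WT in YPL, 2669 and 2554 at 1 h and 2913 and 3074 at 3 h. In cho2 GRX1 held 2176 and 2567 in YPL, 3504 and 3136 at 1 h and 4480.3 and 3715 at 3 h. Each step was upward without overlap, and no library in SL was as low as any in YPL of the same strain. From 1 h to 3 h the groups were apart in 70.9% of all tested genes in WT and 59.5% in cho2. That step of GRX1 did not pass in WT (0.20 ± 0.16, adjusted p = 0.36) or in cho2 (0.30 ± 0.16, adjusted p = 0.17). TMM scaling and DESeq2 called it in both strains. The rise from YPL passed at 3 h in WT (0.50 ± 0.16, adjusted p = 0.013) and in cho2 (0.79 ± 0.16, adjusted p = 0.00027), and at 1 h in cho2 (0.49 ± 0.16, adjusted p = 0.017) but not in WT (0.30 ± 0.16, adjusted p = 0.12). Quantile normalization called this WT difference (adjusted p = 0.0017), as did the fits without 1 of the cho2 libraries at 3 h (0.043). In WT its call at 3 h was lost without the second YPL library (adjusted p = 0.13) or the second 3 h library (0.069). In cho2 its call at 1 h was lost without the first YPL library (0.2) or the first 1 h library (0.17).

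GRX2 read 3306 and 2235 in WT in YPL, 4016 and 3136 at 1 h and 4592 and 3570.1 at 3 h. In cho2 GRX2 held 2741 and 2803 in YPL, 3206 and 3169 at 1 h and 5265 and 4451 at 3 h. The first WT library was the higher of the pair at all 3 samplings, as it was for TRX2. GRX2 rose by 3 h in WT (0.57 ± 0.19, adjusted p = 0.014) and in cho2 (0.80 ± 0.19, adjusted p = 0.00097), and in cho2 also between 1 h and 3 h (0.60 ± 0.19, adjusted p = 0.018). This last call was lost without either 1 h library or the first 3 h library of cho2, at adjusted p from 0.089 to 0.11. Without the second WT YPL library the WT difference was 0.29 with an adjusted p of 0.3, and without the first WT library at 3 h 0.39 with 0.16. At 1 h in WT GRX2 did not pass (0.38 ± 0.19, adjusted p = 0.089), but did with a replicate block (0.048), quantile normalization (0.0081), and without the first YPL library (0.013) or the second 1 h library (0.045). GRX2 overlaps EMI1 (YDR512C) on the reference annotation, and whether the counting used strand is not given in the sources used here. EMI1 itself was listed in WT at 1659 and 1692 in YPL, 1912 and 2430.2 at 1 h and 2138 and 1553 at 3 h. In cho2 EMI1 read 1834 and 2266 in YPL, 2745 and 2900.0 at 1 h and 3721 and 2205 at 3 h. Reads from the shared stretch could not be told apart, so GRX2 is uncertain to that extent.

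The peroxiredoxin genes split by time. AHP1 and TSA2 were highest at 1 h, and TSA1 was lowest then. AHP1 encodes a thioredoxin-dependent peroxidase known for its preference for organic peroxides. It stood in WT at 1041 and 993 in YPL, 4175 and 4631 at 1 h and 2154 and 2040.1 at 3 h. In cho2 it stood at 665 and 775 in YPL, 4185 and 4110.2 at 1 h and 1342 and 1126 at 3 h. All 4 libraries at 1 h lay above the other 8, and within each strain the 3 groups were apart.

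At 1 h AHP1 had risen by 2.11 ± 0.16 (adjusted p = 6.6e-11) in WT and by 2.53 ± 0.16 (adjusted p = 4.2e-12) in cho2, the largest absolute log2 difference from YPL of the 10 genes in both strains. At 3 h it was still up on YPL, by 1.04 ± 0.16 (adjusted p = 7.5e-06) in WT and 0.78 ± 0.16 (adjusted p = 0.00027) in cho2. Between 1 h and 3 h it fell by 1.07 ± 0.16 (adjusted p = 1.5e-05) in WT and by 1.75 ± 0.16 (adjusted p = 2.3e-08) in cho2. All 6 of these results passed in each of the 23 alternative settings.

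TSA2, which encodes a close relative of the TSA1 product with the same enzyme activity, read 172 and 159 in WT in YPL, 248 and 307 at 1 h and 168 and 174 at 3 h. In cho2 TSA2 held 178 and 181 in YPL, 263 and 262 at 1 h and 195 and 155 at 3 h. Both strains had their highest libraries at 1 h, and the libraries at 3 h overlapped those in YPL. The rise at 1 h was 0.74 ± 0.20 (adjusted p = 0.0034) in WT and 0.55 ± 0.20 (adjusted p = 0.028) in cho2, and the difference of 3 h from 1 h -0.69 ± 0.20 (adjusted p = 0.01) in WT and -0.59 ± 0.20 (adjusted p = 0.028) in cho2. In WT the rise lost its call without the second 1 h library (adjusted p = 0.073), and so did the fall (0.16). In cho2 the rise did not pass without any 1 of the 4 cho2 libraries of YPL and 1 h, with adjusted p from 0.11 to 0.14. Its fall in cho2 passed in 16 of the 23 alternatives. The second WT library at 3 h held only 61 reads of TSA2.

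TSA1, the main cytosolic peroxiredoxin gene, held 11498 and 11892 in WT in YPL, 10413 and 10191 at 1 h and 13511 and 12032 at 3 h. In cho2 TSA1 held 11728 and 11620.1 in YPL, 8951 and 9875 at 1 h and 15170.3 and 12481 at 3 h. The 1 h libraries were the lowest and the 3 h libraries the highest in each strain, without overlap. Its rise from 1 h to 3 h passed in cho2 (0.55 ± 0.16, adjusted p = 0.013) and not in WT (0.31 ± 0.16, adjusted p = 0.15), where TMM scaling and DESeq2 did call it. The cho2 call was lost without either 1 h library, at an adjusted p of 0.16 without the first and 0.056 without the second. No difference of TSA1 from YPL passed with all 12 libraries and the deposited scaling. With TMM scaling TSA1 was lower at 1 h in WT (-0.34, adjusted p = 0.035) and cho2 (-0.37, 0.024) and higher at 3 h in cho2 (0.37, 0.023), and DESeq2 called these 3 as well. In cho2 the 1 h difference also passed with quantile normalization (-0.40, 0.011) and, at 0.049, without either cho2 library at 3 h.

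GPX2, a Yap1 target that encodes a thioredoxin-dependent peroxidase of the glutathione peroxidase family, had the smallest counts of the set. It stood in WT at 100.04 and 87.9 in YPL, 179.7 and 208 at 1 h and 151 and 139.6 at 3 h. In cho2 GPX2 held 107 and 109.8 in YPL, 191 and 134 at 1 h and 171 and 146 at 3 h. All SL libraries lay above all YPL libraries in each strain. GPX2 rose at 1 h by 1.03 ± 0.23 (adjusted p = 0.00041) in WT and 0.56 ± 0.23 (adjusted p = 0.043) in cho2, and was up at 3 h by 0.62 ± 0.23 (adjusted p = 0.023) and 0.54 ± 0.23 (adjusted p = 0.044). The cho2 rises lay close to the threshold and passed in 18 of the 23 alternatives at 1 h and in 15 at 3 h. At 1 h the difference was 0.31 with an adjusted p of 0.46 if the first cho2 library at 1 h was left out, and at 3 h the adjusted p was 0.12 if the first 3 h library was. In WT the 3 h call was lost without the second YPL library (0.14) or the first 3 h library (0.089). Its lowest library held 49 reads, which limits the precision.

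YAP1 itself, whose protein is known to be controlled mainly by oxidation and export from the nucleus, rose in both strains at both times. Its libraries read 2641 and 3176 in WT in YPL, 4625 and 5057 at 1 h and 5483 and 5955 at 3 h. In cho2 YAP1 held 2996 and 3219 in YPL, 6193 and 5803 at 1 h and 6304 and 5002 at 3 h. Every SL library lay above every YPL library. The rise was 0.74 ± 0.17 (adjusted p = 0.0006) at 1 h and 0.98 ± 0.17 (adjusted p = 2.6e-05) at 3 h in WT, and 0.95 ± 0.17 (adjusted p = 4.3e-05) and 0.85 ± 0.17 (adjusted p = 0.00013) in cho2. All 4 rises passed in each of the 23 alternatives. Localisation of the protein was not measured.

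**Figure D2:**
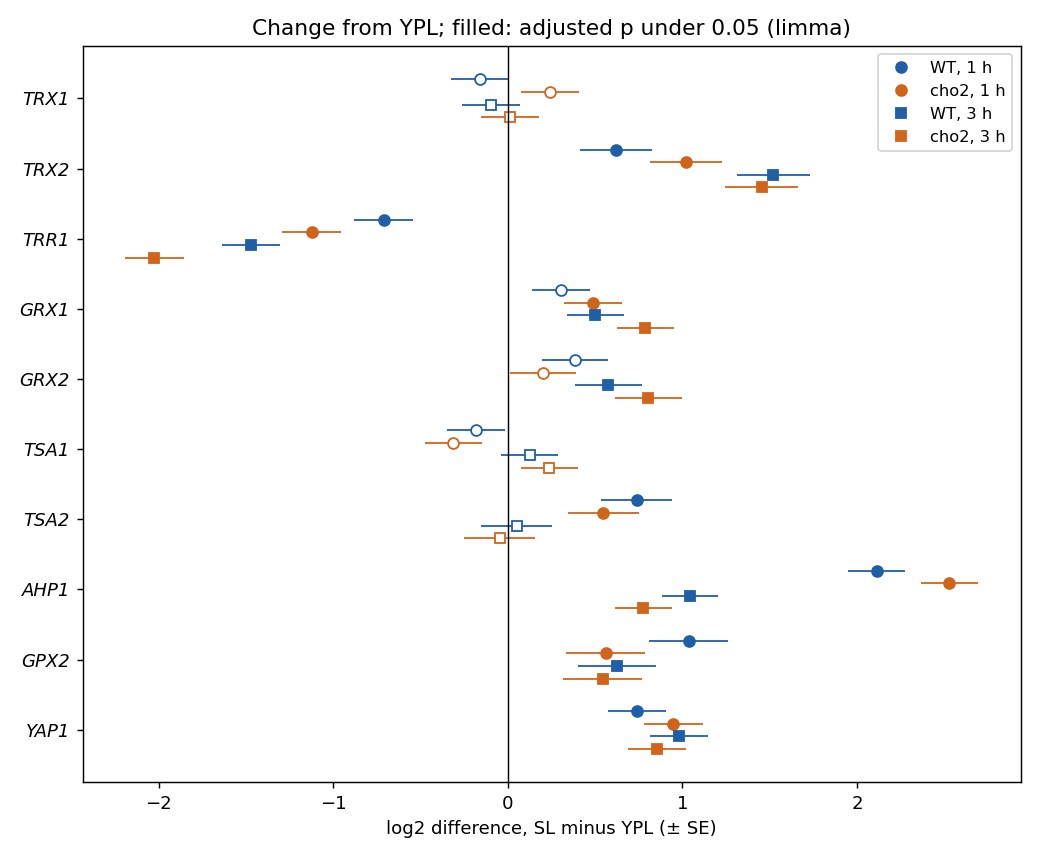
Log2 difference from YPL (horizontal axis) of each gene (vertical axis) at 1 h (circles) and 3 h (squares) in WT (blue) and cho2 (orange), with bars of 1 SE. Filled symbols passed limma at an adjusted p under 0.05. TRR1 is the one gene with all its symbols filled below 0, and AHP1 at 1 h reaches 2.11 in WT and 2.53 in cho2.

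By count, 5 of the 10 genes were higher and 1 was lower at 1 h in WT, where 33.7% of all tested genes were higher and 23.8% lower (2209 and 1557 genes, or 1979 and 2079 with TMM scaling). In cho2 at 1 h the count was 6 higher and 1 lower, against 25.2% and 24.6% of all tested genes. At 3 h it was 6 higher and 1 lower in WT, against 22.9% higher and 30.8% lower, and with quantile normalization 2219 and 1843 of all genes rather than 1500 and 2013. It was again 6 higher and 1 lower in cho2 at 3 h, against 19.8% and 37.0%, where TMM scaling gave 1910 and 2319 of all genes and quantile normalization 2247 and 1930, rather than 1296 and 2420. Between 1 h and 3 h in SL 1 gene was higher and 3 were lower in WT, against 11.1% and 25.5%. In cho2 2 were higher and 3 lower, against 7.99% and 23.8%. Single libraries moved these last shares. Without the second WT library at 1 h 481 genes were higher and 874 lower, rather than 726 and 1671. In cho2 they were 292 and 929 without the first 1 h library, 296 and 971 without the second, 2647 lower without the first 3 h library, and 1003 and 1030 without the second, rather than 523 and 1555. Most tested genes passed between YPL and SL in WT at 1 h, so a count of 6 of 10 is near the background.

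The median log2 difference from YPL of the 10 genes was 0.50 at 1 h and 0.54 at 3 h in WT, against 0.18 and -0.08 over all tested genes. In cho2 it was 0.52 and 0.66, against 0.05 and -0.18. Between 1 h and 3 h the medians were 0.13 in WT and -0.06 in cho2, against -0.21 and -0.16. Scaling moved the median of all genes in several comparisons, at most by 0.25, for cho2 at 3 h with quantile normalization. The calls from 1 h to 3 h in WT depended on it. TMM scaling called 7 of the 10 genes, GRX1, TSA1 and YAP1 in addition. It shifted the median of all genes by 0.20 and gave 1367 higher and 1298 lower genes in all, rather than 726 and 1671 (1248 and 1434 with quantile normalization). For the same interval in cho2 TMM scaling gave 1310 and 1294 rather than 523 and 1555.

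WT and cho2 shared no library in these comparisons. At 1 h the 6 genes that passed in WT (TRX2, TRR1, TSA2, AHP1, GPX2 and YAP1) also passed in cho2 with the same sign, where GRX1 was the seventh. Of all tested genes 42.6% passed in both strains with the same sign at 1 h, 45.4% at 3 h and 21.9% from 1 h to 3 h. At 3 h the same 7 genes passed in each strain with the same sign, namely TRX2, TRR1, GRX1, GRX2, AHP1, GPX2 and YAP1. From 1 h to 3 h TRR1, TSA2 and AHP1 passed in both strains, TRX2 in WT, and GRX2 and TSA1 in cho2. These counts were not tested against those of other genes.

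Ratios within a library do not depend on its scaling. The ratio of TRX2 to TRX1 was higher at each later time, from 0.705 and 0.480 in the WT libraries in YPL to 1.22 and 0.819 at 1 h and 2.23 and 1.43 at 3 h. In cho2 it went from 0.493 and 0.491 to 0.789 and 0.905 and then 1.30 and 1.37. The groups of 1 strain did not overlap in this ratio. The ratio of TRR1 to TRX2 went the other way, from 1.50 and 2.54 in WT in YPL to 0.229 and 0.262 at 3 h, and from 2.47 and 2.44 to 0.247 and 0.197 in cho2.

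Among the peroxiredoxins the ratio of TSA2 to TSA1 was 0.0149 and 0.0133 in WT in YPL, 0.0238 and 0.0301 at 1 h and 0.0125 and 0.0144 at 3 h. It was 0.0152 and 0.0156, then 0.0294 and 0.0265, then 0.0128 and 0.0124 in cho2, and so was highest at 1 h in both. The ratio of AHP1 to TSA1 was 0.0905 and 0.0835 in WT in YPL, 0.401 and 0.455 at 1 h and 0.159 and 0.170 at 3 h. In cho2 it was 0.0567 and 0.0667, 0.468 and 0.416, and 0.0885 and 0.0902. At 3 h both cho2 libraries lay below both WT libraries in the AHP1 ratio, and at 1 h the strains overlapped. None of these ratios was tested. In sequence TRX1 and TRX2 matched at 74.4% and TSA1 and TSA2 at 78.5% of aligned bases, and no member had a copy at 95% identity or more over at least 50% of its length.

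**Figure D3:**
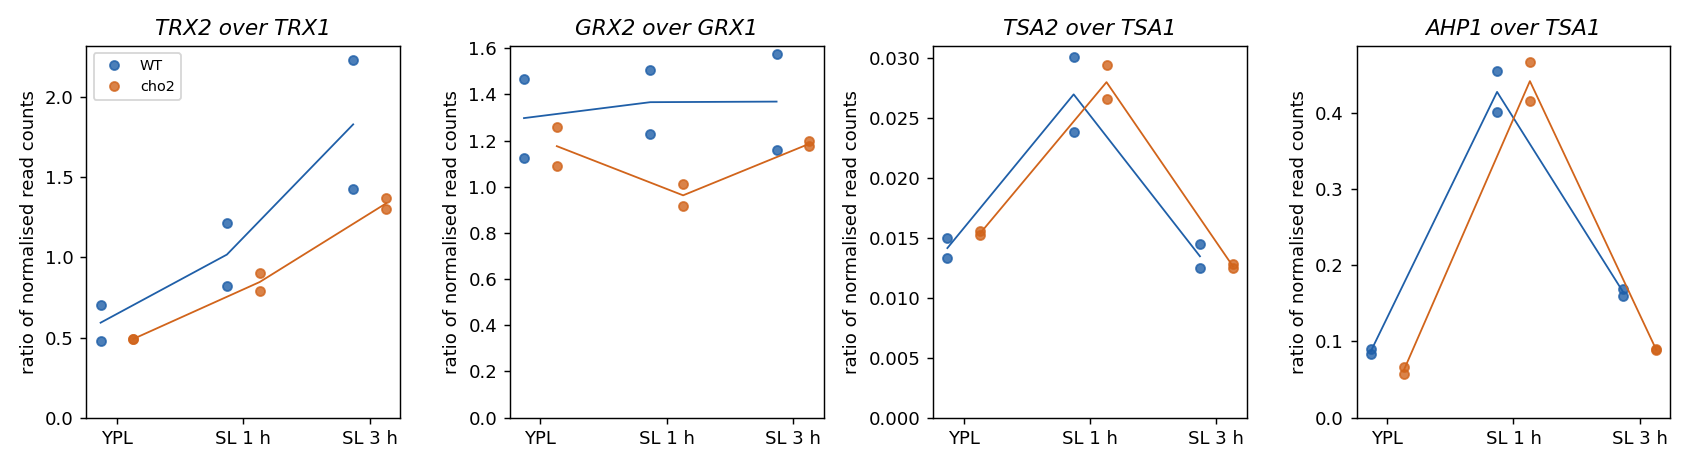
Ratio of the normalised read counts of 2 genes in the same library (vertical axes, from 0) in YPL and at 1 h and 3 h in SL. Points are libraries and lines group means, with WT in blue and cho2 in orange. TRX2 over TRX1 is higher at each later time, the TSA2 and AHP1 ratios to TSA1 peak at 1 h, and GRX2 over GRX1 stays between 0.915 and 1.58.

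The question of what loss of CHO2 changed in these genes was asked in each medium and time. The strain difference passed for 1 of the 10 genes, AHP1 at 3 h. There the WT libraries stood at 2154 and 2040.1 and the cho2 libraries at 1342 and 1126, without overlap. The difference of cho2 from WT was -0.77 ± 0.16 (adjusted p = 0.0081). Relative to the median gene of the same library AHP1 lay at 1.95 and 1.84 log2 in WT and at 1.13 and 1.28 in cho2. In this comparison 2.83% of all tested genes were lower and 0.611% higher in cho2. The splits were 120 higher and 236 lower with TMM scaling and 131 and 190 with quantile normalization, rather than 40 and 185. Single libraries moved these counts, and the second cho2 library at 3 h turned their direction, with 182 genes higher and 95 lower in its absence. In the absence of the first they were 47 and 1069. Without the first WT library at 3 h they were 60 and 70, and without the second 20 and 148. Without a cho2 library of YPL or of 1 h the lower genes numbered 104 to 117.

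AHP1 also stood lower in cho2 in YPL, at 665 and 775 against 1041 and 993, a difference of -0.50 ± 0.16 (adjusted p = 0.32) that did not pass. The strains' libraries did not overlap in 3 of the 10 genes in YPL (TSA2, AHP1 and GPX2), and in 46.4% of all tested genes. At 1 h the strains overlapped in AHP1, with a difference of -0.08 ± 0.16 (adjusted p = 0.82). The 3 h call held with edgeR, DESeq2, TMM scaling and quantile normalization. It was lost without the first WT library at 3 h (-0.73, adjusted p = 0.064) and when only the 4 libraries at 3 h were fitted (adjusted p = 0.41). Over all alternatives the adjusted p ran from 1.6e-06 to 0.41.

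In YPL the strains differed by limma in 0 of the 10 genes, against 0.336% of all tested genes higher and 0.0764% lower. AHP1 was the one gene at an unadjusted p under 0.05, edgeR with the deposited scaling called 0, and DESeq2 called AHP1. The other 9 genes differed by -0.28 (TRX2) to 0.20 (GPX2). The median difference of the 10 genes was 0.04, against 0.01 over all tested genes.

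At 1 h in SL limma again called 0 of the 10, against 3.64% higher and 5.59% lower among all tested genes (238 and 366, or 528 and 471 with TMM scaling). Leaving out 1 of the 4 libraries at 1 h gave 73 to 153 higher and 119 to 176 lower, and leaving out 1 of the cho2 libraries at 3 h gave 378 to 382 and 628 to 631. Here 3 genes had an unadjusted p under 0.05, and edgeR with the deposited scaling called 0, edgeR with TMM scaling 3 and DESeq2 4. The difference of cho2 from WT was negative in TRR1 (-0.36 ± 0.17, adjusted p = 0.21) and positive in TRX1 (0.36 ± 0.17, adjusted p = 0.21), GRX1 (0.34 ± 0.16, adjusted p = 0.22) and YAP1 (0.31 ± 0.17, adjusted p = 0.29). The libraries of the strains did not overlap in these 4 genes and in TSA1, 5 of the 10, while the same held for 64.5% of all tested genes. With TMM scaling TRR1, GRX1 and YAP1 passed, at adjusted p of 0.042, 0.037 and 0.04. TRR1 also passed with the deposited scaling without either cho2 library at 3 h. Its difference stayed at -0.36 there, since those libraries enter this comparison only through the shared spread. TRX1 and TRR1 passed when both second libraries at 3 h were left out, an alternative chosen after seeing the data.

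At 3 h the libraries of the strains did not overlap in TRX2, TRR1, GRX1 and AHP1, 4 of the 10 genes, and in 31.4% of all tested genes. TRX2 stood at 3231 and 3007 in cho2 against 4317 and 3661 in WT, a difference that did not pass (-0.35 ± 0.21, adjusted p = 0.42). Its values relative to the median gene of the same library did overlap, at 2.39 and 2.69 log2 in cho2 and 2.96 and 2.68 in WT. TRR1 stood at 798 and 591 in cho2 against 988 and 960.2 in WT (-0.50 ± 0.17, adjusted p = 0.11), and GRX1 at 4480.3 and 3715 against 2913 and 3074 (0.45 ± 0.16, adjusted p = 0.15). Relative to the median gene of their library the TRR1 values were 0.38 and 0.35 log2 in cho2 and 0.83 and 0.75 in WT. Those of GRX1 were 2.87 and 3.00 against 2.39 and 2.43. Neither passed with all 12 libraries and the deposited scaling, and both passed with TMM scaling (adjusted p = 0.018 and 0.031), quantile normalization (0.025 and 0.028) and DESeq2 (0.0044 and 0.0024). TRR1 passed with the deposited scaling too (-0.72, adjusted p = 0.0081) when the first 3 h library of cho2 was left out, which kept the second, the library with the low median, alone in its group. With TMM scaling the TRR1 difference was -0.44 and that of GRX1 0.51. Over the 10 genes the median difference was -0.08 at 1 h and 0.04 at 3 h, against -0.07 and -0.08 over all tested genes.

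**Figure D4:**
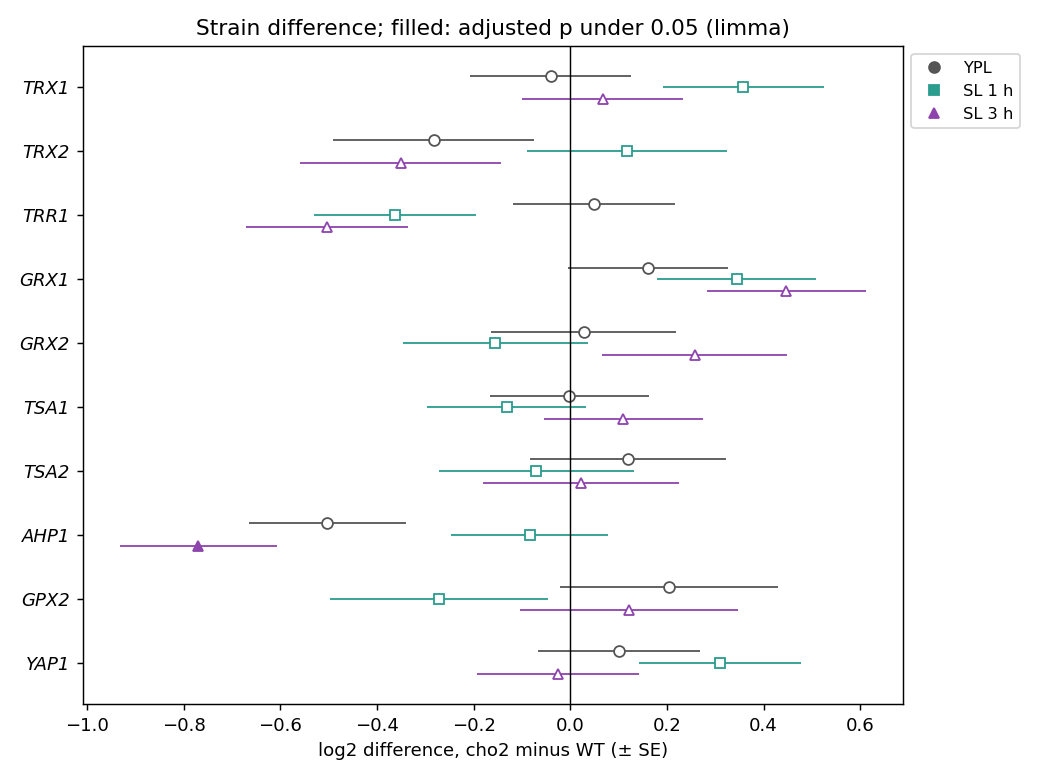
Log2 difference of cho2 from WT (horizontal axis) for each gene (vertical axis) in YPL (grey circles), at 1 h (green squares) and at 3 h (purple triangles) in SL, with bars of 1 SE. The filled symbol, AHP1 at 3 h at -0.77, passed limma at an adjusted p under 0.05; the open symbols did not.

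Whether the strains differed in their change from YPL was tested by the interaction of strain and medium. At 1 h limma called 0 of the 10 genes, while the unadjusted p was under 0.05 for 0, edgeR called 0 and DESeq2 called 1 (AHP1). Of all tested genes 1.62% had a change that was higher in cho2 and 1.99% one that was lower. At 3 h limma called 0, edgeR 0 and DESeq2 0, and TRR1 was the 1 gene with an unadjusted p under 0.05, against 0.0764% and 0.626% of all tested genes. These were 5 and 41 genes, or 15 and 46 with TMM scaling and 15 and 48 with quantile normalization. With 1 library left out at a time the counts over all genes ran from 27 to 155 and 67 to 264 at 1 h and from 2 to 18 and 25 to 151 at 3 h, the last without the first 3 h library of cho2.

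For the change from 1 h to 3 h limma called 0 and edgeR with the deposited scaling 0, DESeq2 called AHP1, and AHP1 was also the 1 gene with an unadjusted p under 0.05, against 0.672% and 1.44% of all tested genes. Quantile normalization gave 147 and 161 such genes in all, rather than 44 and 94, and leaving out 1 library gave 17 to 199 and 35 to 385. The largest of these member differences was that of AHP1, whose fall from 1 h to 3 h differed between the strains (cho2 minus WT) by -0.69 ± 0.23 log2 (adjusted p = 0.14). It passed with TMM scaling, and also, at -0.81, when the first 3 h library of cho2 was left out. That fit kept the second, the library with the low median, alone in its group. For TRR1 the fall from YPL to 3 h differed by -0.55 ± 0.24 (adjusted p = 0.49).

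Among the other thiol redox enzymes, a list of 14 genes that were all tested, GRX8 had the largest log2 difference of 1 h from YPL in WT. GRX8 encodes a further glutaredoxin and stood in WT at 148 and 144 in YPL, 3544 and 3005 at 1 h and 884 and 587 at 3 h. In cho2 it stood at 281 and 307 in YPL, 1442 and 1443 at 1 h and 437 and 306 at 3 h, so its libraries were higher than WT in YPL and lower in SL. The strain difference passed all 3 times, at 1.01 ± 0.20 (adjusted p = 0.015) in YPL, -1.18 ± 0.20 (adjusted p = 0.00041) at 1 h and -0.98 ± 0.20 (adjusted p = 0.0074) at 3 h. Relative to the median gene of their library the 3 h values of GRX8 were -0.49 and -0.60 log2 in cho2 and 0.67 and 0.04 in WT. Its rise at 1 h was smaller in cho2 (-2.19 ± 0.29, adjusted p = 1.7e-05).

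Of these 14 genes 7 were higher and 1 was lower at 1 h in each strain, with a median of 0.54 in WT and 0.76 in cho2. Over all tested genes 33.7% were higher and 23.8% lower in WT, with a median of 0.18, and 25.2% and 24.6% in cho2, with a median of 0.05. The mitochondrial peroxiredoxin gene PRX1 rose from 4268 and 3093 to 10153 and 8559 in WT (1.36 ± 0.17, adjusted p = 3.6e-07) and from 3209 and 3363 to 9609.9 and 9591 in cho2 (1.55 ± 0.17, adjusted p = 5.2e-08). TRR2, for the mitochondrial thioredoxin reductase, rose at 1 h in WT (1.18 ± 0.18, adjusted p = 3.8e-06) and cho2 (1.08 ± 0.18, adjusted p = 1.6e-05), the opposite of TRR1. SRX1, for the sulfiredoxin that repairs overoxidised peroxiredoxin, rose in WT from 11.1 and 14.1 to 48.5 and 84.6 (2.27 ± 0.37, adjusted p = 1.5e-05) and in cho2 from 15.1 and 9.29 to 66.8 and 68.9 (2.42 ± 0.37, adjusted p = 7.1e-06).

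At 3 h 6 of the 14 were higher and 3 lower in WT, against 22.9% and 30.8% of all tested genes, and 4 and 3 in cho2, against 19.8% and 37.0%. GPX1, for a glutathione peroxidase, was among the higher in both (1.50 ± 0.21, adjusted p = 2.2e-06 and 1.58 ± 0.21, adjusted p = 1e-06). From 1 h to 3 h 5 of the 14 fell in each strain, against 25.5% of all tested genes in WT and 23.8% in cho2. They included GRX3, for a monothiol glutaredoxin of iron sensing (-1.004 ± 0.20, adjusted p = 0.00035 in WT, -1.28 ± 0.20, adjusted p = 2.6e-05 in cho2), and DOT5, for the nuclear peroxiredoxin (-0.90 ± 0.18, adjusted p = 0.00048 and -1.13 ± 0.18, adjusted p = 4.2e-05).

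Of 9 partners and textbook targets of Yap1 outside the 10 genes, 5 were higher and 1 lower at 1 h in WT, against 33.7% and 23.8% of all tested genes. In cho2 3 were higher and 1 lower, against 25.2% and 24.6%. GSH1, for the first enzyme of glutathione synthesis, read 862 and 1163 in WT in YPL, 7424 and 8904 at 1 h and 3412 and 4123 at 3 h. In cho2 GSH1 held 1442 and 1521 in YPL, 4853 and 4480.2 at 1 h and 3402 and 2628 at 3 h. Its 1 h libraries were the highest in each strain and lower in cho2 than in WT (-0.80 ± 0.18, adjusted p = 0.0059). The rise of GSH1 at 1 h was smaller in cho2 (-1.37 ± 0.26, adjusted p = 0.0021). GTT2, for a glutathione S-transferase, rose at 1 h in WT (1.76 ± 0.19, adjusted p = 3.6e-08) and cho2 (1.20 ± 0.19, adjusted p = 1.5e-05), as did the drug transporter gene FLR1 (1.28 ± 0.20, adjusted p = 6.2e-06 and 0.68 ± 0.20, adjusted p = 0.0058).

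Between the strains at 1 h 4 of these 9 genes were lower in cho2, against 5.59% of all tested genes, GTT2 (-0.98 ± 0.19, adjusted p = 0.0019), GSH1 and the transporter gene ATR1 (-0.87 ± 0.22, adjusted p = 0.015) among them. The median was -0.24, against -0.07 over all tested genes. At 3 h OYE2, for an NADPH oxidoreductase of the old yellow enzyme family, was the 1 gene of the 9 that passed. It stood at 702 and 543 in cho2 against 2100.3 and 1664 in WT (-1.60 ± 0.18, adjusted p = 5.8e-06), and relative to the median gene at 0.19 and 0.23 log2 against 1.92 and 1.54.

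The catalase, superoxide dismutase and cytochrome c peroxidase genes, 6 in number, had 4 higher and 1 lower at 1 h in WT and 3 higher and 1 lower in cho2, against 33.7% and 23.8%, and 25.2% and 24.6%, of all tested genes. At 3 h the counts were 2 and 1 in WT, and 1 and 2 in cho2, against 22.9% and 30.8%, and 19.8% and 37.0%. CTT1, the cytosolic catalase gene, went from 368 and 296 to 16621 and 19433 in WT and from 543 and 625 to 20493 and 18963 in cho2, the largest rise of the list in each strain. The peroxisomal catalase gene CTA1 rose at 1 h by 1.10 ± 0.18 (adjusted p = 1.9e-05) in WT and 1.11 ± 0.18 (adjusted p = 2.1e-05) in cho2, and CCP1, for the mitochondrial cytochrome c peroxidase, by 0.86 ± 0.17 (adjusted p = 0.00015) and 0.76 ± 0.17 (adjusted p = 0.0006). SOD2, the mitochondrial superoxide dismutase gene, was lower at 3 h (-1.44 ± 0.18, adjusted p = 3e-07 in WT and -1.84 ± 0.18, adjusted p = 5.6e-09 in cho2). From 1 h to 3 h 3 of the 6 fell in WT and 5 in cho2, against 25.5% and 23.8%.

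A further list held 7 genes for reductases that draw electrons from thioredoxin or glutaredoxin, or for subunits of such enzymes. Of these, 6 rose at 1 h in each strain, against 33.7% of all tested genes in WT and 25.2% in cho2. MET16, for the sulfate assimilation reductase that uses thioredoxin, went from 109 and 129 to 10913 and 13236 in WT and from 281 and 343 to 6396 and 6040.4 in cho2. MXR1, for a methionine sulfoxide reductase, rose in WT from 819.5 and 547 to 6525 and 4506 (3.02 ± 0.22, adjusted p = 2.7e-11) and in cho2 from 1048 and 1206 to 3039.8 and 2748 (1.36 ± 0.22, adjusted p = 1.5e-05). Of the ribonucleotide reductase genes RNR2, RNR3 and RNR4 rose at 1 h in both strains. The rise was 1.94 ± 0.19 (adjusted p = 5.9e-09) in WT and 1.66 ± 0.19 (adjusted p = 9.8e-08) in cho2 for RNR3, 0.74 ± 0.17 (adjusted p = 0.0009) and 1.53 ± 0.17 (adjusted p = 7.4e-08) for RNR2, and 1.00 ± 0.18 (adjusted p = 4.7e-05) and 1.61 ± 0.18 (adjusted p = 5.9e-08) for RNR4. At 3 h RNR2 read 18646 and 13423 in WT and 13569 and 11624 in cho2, up from 2622 and 2636 and 2647 and 2431. RNR1 fell from 1 h to 3 h in WT (-1.44 ± 0.17, adjusted p = 4.3e-07) and cho2 (-1.36 ± 0.17, adjusted p = 1.1e-06).

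The 7 genes of NADPH supply, on which thioredoxin reductase depends, included GND2 among the genes that rose and TAL1 among those that fell. At 1 h 2 were higher and 4 lower in WT and 1 higher and 4 lower in cho2, against 33.7% and 23.8%, and 25.2% and 24.6%, of all tested genes. At 3 h 1 was higher and 4 were lower in WT, against 22.9% and 30.8%, and 1 and 6 in cho2, against 19.8% and 37.0%. GND1 and GND2 encode the major and minor 6-phosphogluconate dehydrogenases. GND1 fell at 1 h in WT (-1.38 ± 0.17, adjusted p = 1.8e-07) and in cho2 (-1.57 ± 0.17, adjusted p = 2.8e-08), while GND2 rose (3.19 ± 0.17, adjusted p = 1e-13 and 3.75 ± 0.17, adjusted p = 8.2e-15). TAL1, for transaldolase, fell by 1.65 ± 0.16 (adjusted p = 5.7e-09) at 3 h in WT and fell by 2.37 ± 0.16 (adjusted p = 1.2e-11) in cho2. ZWF1, for glucose-6-phosphate dehydrogenase, stood at 1362 and 1291 in cho2 against 3144 and 3435 in WT at 1 h (-1.31 ± 0.16, adjusted p = 6.1e-06), without overlap.

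**Figure D5:**
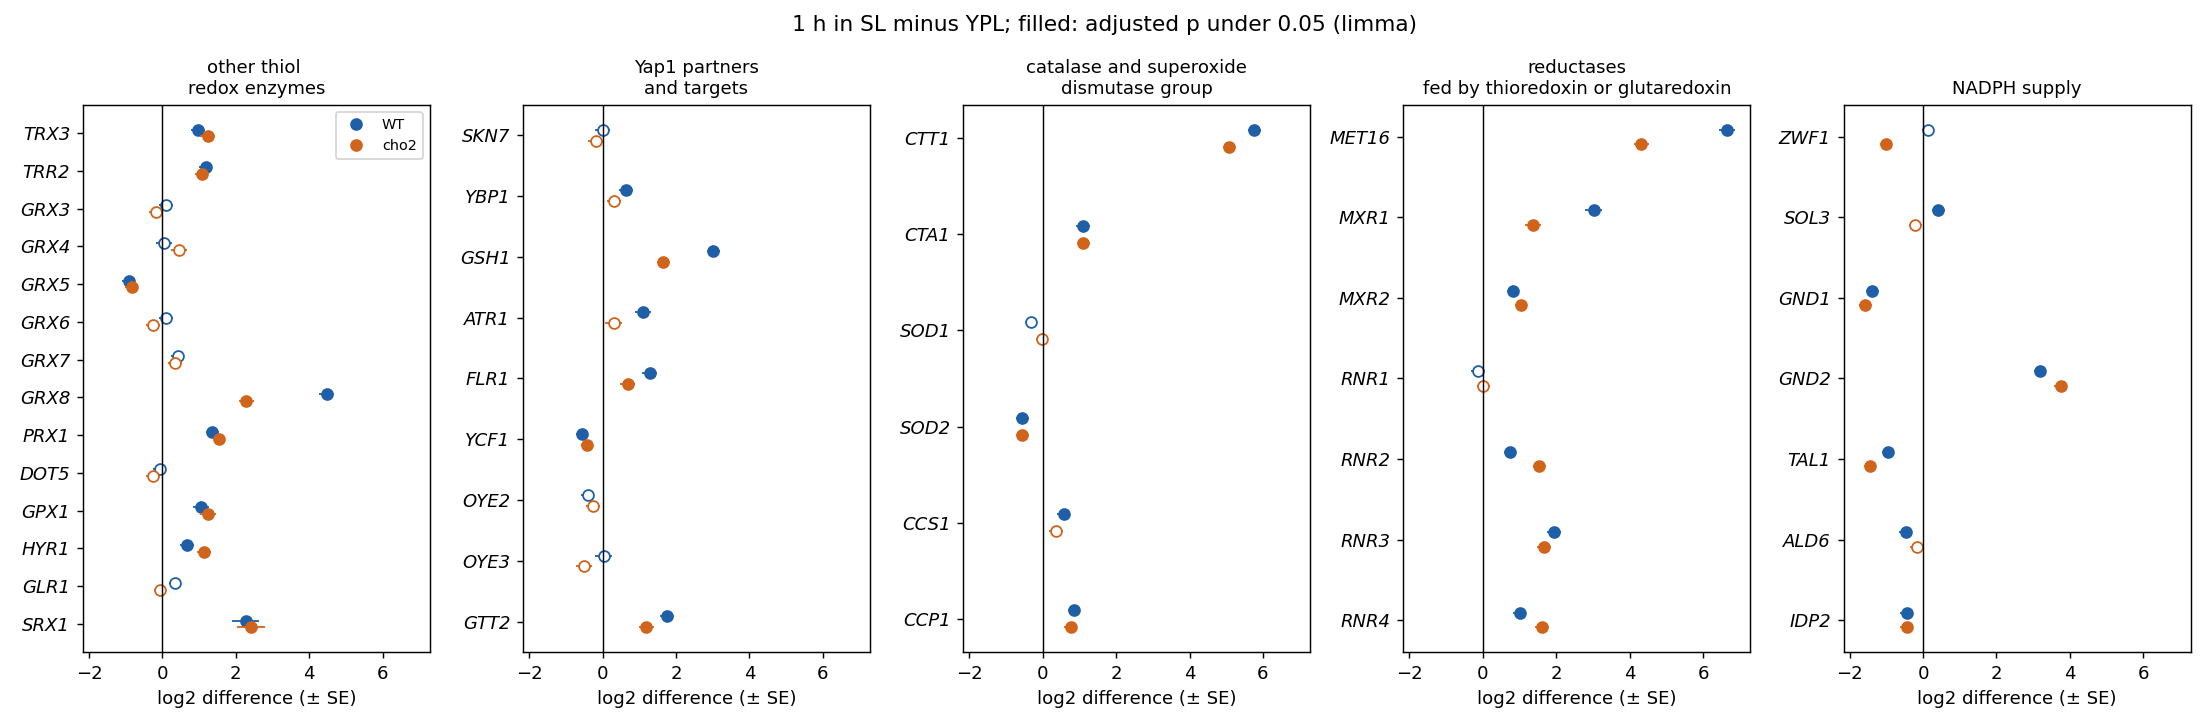
Log2 difference of 1 h in SL from YPL (horizontal axes) of the genes of 5 related lists (vertical axes) in WT (blue) and cho2 (orange), with bars of 1 SE and filled symbols for an adjusted p under 0.05. CTT1 and MET16 lie farthest to the right, and GRX8, GSH1, MXR1 and MET16 lie farther right in WT than in cho2.

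Over the 12 libraries the 10 genes followed each other to very different degrees, and these correlations, over libraries that share media and strains, are descriptions only. AHP1 and TSA2 had a Pearson r of 0.84, TRX2 and GRX2 of 0.86 and TRX2 and TRR1 of -0.88. TSA1 and TSA2 stood at -0.71 and TRX1 and TRX2 at -0.06. Among 5138 genes outside the set with a mean of at least 50, the gene most like TRR1 was FCP1 (0.99), followed by TAL1 (0.99). The most like YAP1 was NNR1 (0.99), the most like AHP1 GPP1 (0.98) and the most like GRX2 RER1 (0.98). TSA2 was closest to ZTA1 (0.97), TSA1 to TPO5 (0.97), TRX2 to ATG22 (0.96), GRX1 to KAR4 (0.96) and GPX2 to ATG26 (0.95). TRX1, which varied least, had YPT31 at 0.87.

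By group mean, TRX2 was highest in WT at 3 h (3989 ± 463, SD, n = 2) and lowest in cho2 in YPL (1139 ± 52.8), and the groups from cho2 at 1 h down to cho2 in YPL overlapped their neighbours. TRR1 was highest in cho2 in YPL (2798 ± 106), which overlapped WT in YPL, and then fell without overlap through WT at 1 h, cho2 at 1 h and WT at 3 h to cho2 at 3 h (695 ± 147). AHP1 ran from WT at 1 h (4403 ± 323), which overlapped cho2 at 1 h, without further overlap through WT at 3 h, cho2 at 3 h and WT in YPL to cho2 in YPL (720 ± 77.7). GRX1 was highest in cho2 at 3 h (4098 ± 541) and lowest in WT in YPL (2118 ± 189). TSA1 was highest in cho2 at 3 h (13826 ± 1902), which overlapped WT at 3 h, and lowest in cho2 at 1 h (9413 ± 654).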

How the data were processed

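Poly-A RNA of 12 libraries was measured, 2 in each of 6 groups that were taken from the sample titles. The deposited signal values are gene counts that the authors divided by 1 factor for each library, made with Bowtie and DESeq on build sacCer2, per the submitters' processing notes. Not given in the sources used here are the versions, the annotation, the counting tool and its use of strand. Whole reads were recovered from the deposited steps for 100% of the values within 0.01 reads. In 3 columns the step lay near 1. These depths set the precision, and reads without molecular identifiers are not independent molecules.

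Genes listed at 10 or more in at least 2 libraries were fitted with limma 3.58.1 (R 4.3.3, trend) on log2(value + 1), all 12 libraries in 1 fit, with Benjamini-Hochberg adjustment within each of the 12 comparisons. The alternatives were a pseudocount of 5, no filter, a filter at 50, TMM scaling, quantile normalization, a replicate block, a comparison's own libraries only, the recovered reads with edgeR 4.0.16 and with DESeq2 1.42.0, and leaving out 1 library at a time. Leaving out both second libraries at 3 h was added after the data were seen. The procedure was also run on simulated data, drawn without a library of low median and without effects shared by replicates. Its outcome is not used for the calls here. Copies were searched with blastn 2.17.0, and figures drawn with Python 3.11.15 and matplotlib 3.10.9. Of the 6685 IDs, 6006 matched the reference annotation by systematic name.

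The members and gene lists were chosen with earlier results of these data known. Besides the members and the check genes, the text could name up to 3 genes of each list that passed with the smallest adjusted p in a comparison, and the 3 genes most like each member. EMI1 was added for its overlap with GRX2. Promoter motifs and protein sequences were not used here.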

Additional observations from a re-analysis of the deposited data

Results flagged for a closer look

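The related lists held 14, 9, 6, 7 and 7 genes. In 9 of these genes the change with medium or time differed between the strains by the interaction test of limma over all tested genes. Each group had 2 libraries. Of all tested genes 1.62% had a higher and 1.99% a lower change to 1 h in cho2. The shares were 0.0764% and 0.626% for the change to 3 h, and 0.672% and 1.44% from 1 h to 3 h. How these calls fared under the alternative settings was not examined. Differences are cho2 minus WT on the log2 scale. The rise from YPL to 1 h in SL was smaller in cho2 for the glutaredoxin gene GRX8 (-2.19), the glutathione synthesis gene GSH1 (-1.37), the sulfate assimilation reductase gene MET16 (-2.33) and the methionine sulfoxide reductase gene MXR1 (-1.66). For the glucose-6-phosphate dehydrogenase gene ZWF1 the difference in the change to 1 h was -1.15. ZWF1 stood at 3144 and 3435 in WT and at 1362 and 1291 in cho2 at 1 h.

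The change from YPL to 3 h differed for GRX8 (-1.99), MET16 (-1.69), the oxidoreductase gene OYE2 (-1.27) and the catalase gene CTA1 (-1.13). The change from 1 h to 3 h differed for OYE2 (-1.42), CTA1 (-1.14), the ribonucleotide reductase gene RNR2 (-1.08) and the 6-phosphogluconate dehydrogenase gene GND2 (-0.96). At 1 h the cho2 and WT means were 23144.5 and 13509 for CTA1, 7338 and 4396 for RNR2, and 15773 and 9228 for GND2. At 3 h they were 10160.5 and 12877, 12597 and 16034, and 7891 and 8876. Those of OYE2 were 1886 and 2137 at 1 h and 623 and 1882 at 3 h. In YPL CTA1 had means of 10838 in cho2 and 6265 in WT, a difference that did not pass. GRX8 and MET16 were also higher in cho2 in YPL, at 1.01 ± 0.20 (adjusted p = 0.015) and 1.38 ± 0.21 (adjusted p = 0.00053). The adjusted p-values lay between 1e-05 for MET16 at 1 h and 0.037 for CTA1 at 3 h. Relative to the median gene of their library, both cho2 libraries at 3 h lay below both WT libraries for GRX8 and OYE2. The part that the low median of the second cho2 library at 3 h has in the other 3 h values was not tested.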

How the results depend on the processing

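Of the 37 results in which one of the 10 genes passed, 37 kept their sign under all 23 alternatives and 22 passed under all of them. Of the 83 that did not pass, 24 passed and 33 changed sign under at least 1. The number of genes called between the strains at 1 h, 0 with limma, was 3 with TMM scaling, 1 with quantile normalization, 3 with only the libraries of the comparison, 3 with edgeR and TMM, 4 with DESeq2 and 2 without both second libraries at 3 h, the last chosen after the data were seen. At 3 h it was 1, and 3 with TMM scaling, quantile normalization, edgeR with TMM and DESeq2, but 0 with only the libraries of the comparison. In YPL DESeq2 called 1 rather than 0. From 1 h to 3 h in WT TMM scaling, edgeR with TMM and DESeq2 called 7 rather than 4. For the strain difference in change DESeq2 called 1 at 1 h, and for that from 1 h to 3 h TMM scaling, edgeR with TMM and DESeq2 called 1, rather than 0. The cause was not tested.

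With each library left out in turn the counts ranged from 0 to 0 between the strains in YPL, 0 to 1 at 1 h and 0 to 2 at 3 h. They ranged from 5 to 7 in WT at 1 h, 4 to 7 at 3 h and 2 to 4 from 1 h to 3 h. In cho2 they ranged from 4 to 8, 6 to 7 and 2 to 5. For the strain difference in change they ranged from 0 to 0 at 1 h, 0 to 1 at 3 h and 0 to 1 from 1 h to 3 h. The lowest counts came without the second WT YPL library (WT at 3 h: GRX1, GRX2 and GPX2 lost), without the second WT library at 1 h (TRX2 and TSA2 lost), without the first cho2 library of YPL or of 1 h (GRX1, TSA2 and GPX2 lost) and without either cho2 library at 1 h (GRX2, TSA1 and TSA2 lost). Without the first cho2 library at 3 h TRR1 passed between the strains at 3 h and in its change to 3 h, and AHP1 in its change from 1 h. That fit kept the second, the library with the low median, alone in its group.

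The labels do not say what a replicate number shares, and the deviations of same-numbered libraries correlated at -0.20 to 0.54, over 0.1 in 6 of 15 pairs of groups. They were over 0.1 in all 3 pairs of WT groups (0.54, 0.13 and 0.18) and between the strains at 3 h (0.42), but not throughout, so the numbers were not taken to pair the libraries, and shared culture of same-numbered WT libraries was not tested. With the replicate block GRX2 passed in WT at 1 h in addition (0.38, adjusted p = 0.048), 7 genes rather than 6, and the other counts did not move (AHP1 between the strains at 3 h: adjusted p = 0.0054).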
